A study of Mus musculus with 80 samples.

Results

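Gene expression after 24 h of 2i was compared with serum in E14 mouse embryonic stem cells (ESCs). All 25965 genes of the deposited expression table were taken, in 6 RNA-seq libraries (3 in serum and 3 after 24 h) of the 80 samples of the series. The series follows wild-type and mutant ESCs as they are moved from serum to 2i, chiefly by DNA methylation, with 12 RNA-seq libraries of E14 cells in serum and at 6, 24 and 72 h. E14 is an established ESC line, labelled as wild-type throughout. The serum group grew in medium with fetal calf serum and the cytokine LIF. The 24 h group had been moved to serum-free N2B27 medium with LIF, the MEK inhibitor PD0325901 and the GSK3 inhibitor CHIR99021, so LIF was common to both groups. Removal of serum, the change of basal medium from DMEM to N2B27 and addition of both inhibitors happened together. Their parts in any difference cannot be told apart. A single line was used, and the study calls its expression replicates biological replicates without saying whether they were separate cultures. The p-values and SEs of genes therefore measure the spread between libraries, pooled over all 12 RNA-seq libraries.

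ESCs in serum receive signals that both maintain and erode pluripotency. FGF4 acts through MEK and ERK and prepares cells for differentiation, and ERK activity is read from a group of immediate targets and feedback inhibitors. GSK3 marks beta-catenin for degradation, and its inhibition lets beta-catenin accumulate and relieves repression by Tcf7l1 of naive pluripotency genes. Serum itself supplies BMP, lipids and activators of the SRF and YAP pathways, which drive cytoskeletal and matrix genes.

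Library depth was similar in both groups, with 10780885 to 15925812 recovered reads in serum and 12494554 to 13779228 at 24 h. The values were log2 reads per exon length, scaled so that the 75th percentile of all libraries was equal. Of the 25965 genes, 12306 reached a value of 0 or more in at least 3 of the 12 libraries and were tested, and 13659 were not. A gene that is high in a single group of 3 libraries passes, so tested members of a list are not a sample of the whole list. The ESC markers Pou5f1, Sox2, Nanog, Zfp42 and Esrrb were all tested, and their summed level was 9.63 to 9.78 in serum and 9.66 to 10.29 at 24 h on the log2 scale. Primitive endoderm markers passed the filter in 3 of 7 cases, with a summed level of 2.22 to 2.31 in serum and 1.92 to 1.98 at 24 h, trophoblast markers in 5 of 6 (2.36 to 2.61 and 1.14 to 1.48), mesoderm markers in 1 of 4 (1.12 to 1.43 and −0.14 to 0.20), neural markers in 3 of 4 (5.64 to 5.72 and 5.96 to 6.29) and fibroblast markers in 2 of 7 (2.94 to 3.29 and 2.26 to 2.96). These are short sets of defining markers, and the gene lists of the same names counted among the 39 lists are longer. Of the fibroblast markers, Dcn and Lum had under 10 reads in every library, as did Mixl1 and Mesp1 of the mesoderm markers. The highest value of a single neural marker was 6.19, close to the highest neural sum. In bulk RNA, fewer cells of a type and less RNA per cell cannot be told apart.

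The 24 h libraries stood apart from serum in a trend with gene length. Genes were divided into quintiles by exon length, and the median deviation from the serum mean was taken in each library. The shortest quintile exceeded the longest by 1.71 in 24 h replicate 1, 1.44 in replicate 2 and 0.52 in replicate 3 (log2). In serum the same difference was 0.09, 0.12 and −0.20. The 3 libraries at 24 h therefore lay above the 3 serum libraries but differed widely among themselves, with replicate 3 the nearest to serum. By exon length, the mean was 0.00 ± 0.18 (SD, n = 3) in serum and 1.22 ± 0.62 at 24 h, and by genomic span −0.00 ± 0.11 and 0.92 ± 0.49. The serum means follow from the method, since deviations were taken from the mean of the same 3 libraries. The exact permutation test, two-sided, gave p = 0.1 for both, the smallest that 3 against 3 libraries allow. The trend had been seen in these libraries before the test, so this p only describes it.

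**Figure D1:**
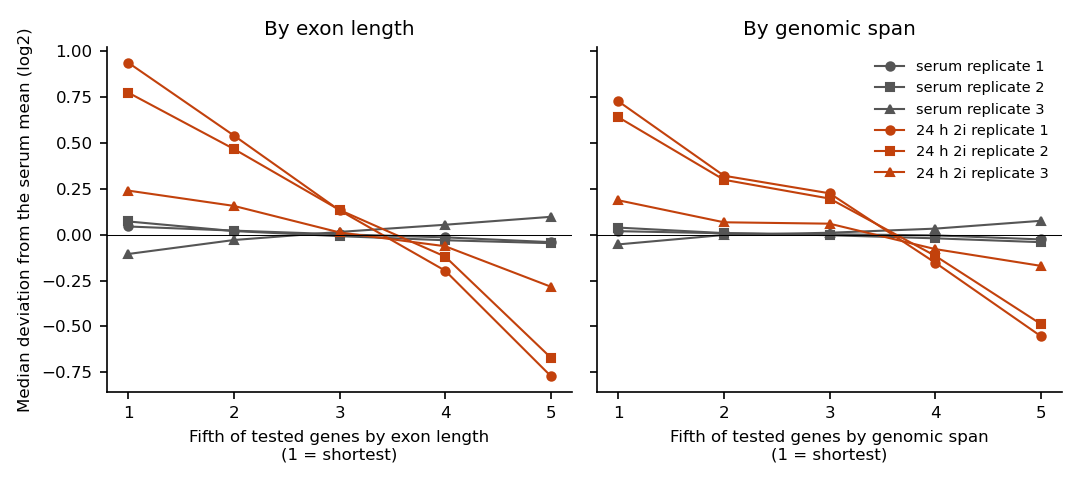
Median deviation from the serum mean (y axis, log2) of the tested genes in quintiles by exon length (left) and by genomic span (right, shortest to longest on the x axis). Each line is 1 library, grey for serum and orange for 24 h 2i, and the marker shape gives the replicate. The 24 h lines fall from the shortest to the longest quintile, by 1.71, 1.44 and 0.52 for exon length.

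The trend was stronger with exon length than with span. Across genes, Spearman's rho of the change at 24 h was −0.45 with exon length (12293 genes) and −0.32 with span (12306 genes), which describes genes that share the same 6 libraries. Within each quintile by span, genes of the shortest exon length quintile had a median change of 0.59 to 0.68. Genes of the longest exon length quintile had medians of −0.32 to −0.72 in the 4 longer quintiles by span. In the longest exon length quintile, 57.0% of genes were called lower and 11.9% higher, and in the shortest quintile 10.4% were lower and 53.2% higher. The cause of this trend was not tested. Each comparison is therefore given on the deposited values and, where it matters, after the trend with exon length was removed from every library.

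Most tested genes differed between 24 h and serum. By limma with Benjamini-Hochberg adjustment, 7786 genes passed an adjusted p of 0.05 (63.3% of those tested), of which 4208 were higher (34.2%) and 3578 lower (29.1%). Over all genes tested, the median change was 0.11, which became −0.01 with the span trend removed and −0.00 with the exon length trend removed. With the span trend removed, 7727 genes were called (62.8%), 3778 higher (30.7%) and 3949 lower (32.1%). Removal of the exon length trend gave 7607 calls (61.9%), 3703 higher (30.1%) and 3904 lower (31.8%), so that the share of calls that were higher went from 54.0% to 48.7%. Calls in the same direction in all 3 fits numbered 5571 (45.3%), with 2857 higher (23.2%) and 2714 lower (22.1%). The 3 values at 24 h did not overlap the 3 in serum for 7965 genes (64.7%), among them 7405 of the 7786 called genes. Absence of overlap therefore adds little to a call. The counts of members below are to be read against these shares.

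A change of at least 1 on the log2 scale was met by 1857 genes called higher and 1521 called lower on the deposited values, and by 1249 and 1313 with the exon length trend removed. The change of sign was rare among calls: 48 genes were called in opposite directions in these fits. Of these, 44 were lower on the deposited values and higher after removal, and their exon lengths ran from 7706 to 27464 bases. The other 4 were short genes of 360 to 1319 bases that were higher and then lower. No gene was called in opposite directions when the span trend was removed instead.

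ERK targets and feedback genes fell as a group. Of 25 members tested, 23 were lower and none higher, with a median change of −2.11, against 0.11 over all genes. After removal of the exon length trend, 23 were again lower and the median was −2.40. The per-library medians of the deviation from serum were −2.10, −2.0 and −2.24 at 24 h. Among the members, all 9 Sprouty, Spred and Dusp genes, which encode inhibitors of the pathway and phosphatases, were lower in both fits, as were all 3 Ets factors of the Etv group.

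Spry4, a feedback inhibitor of receptor tyrosine kinase signalling, was the gene with the largest fall. It had 2346, 1917 and 3361 reads in serum and 3, 0 and 3 at 24 h. The ratio of reads corrected for depth was 1259 (95% interval 578 to 3431, counting error only), and the adjusted p was 2.4e-07. Its paralog Spry2 was 5.38, 5.40 and 5.42 in serum and 3.30, 3.40 and 3.16 at 24 h, a change of −2.11 ± 0.12 (SE; adjusted p = 1.8e-07). The groups did not overlap for either gene.

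Dusp6 (chr10:99263231-99267488, GRCm38), the cytosolic phosphatase of ERK, was 4.81, 4.80 and 4.64 in serum and 0.19, −0.04 and −0.46 at 24 h. The change was −4.86 ± 0.18 (adjusted p = 1.5e-08), a 29.0-fold fall. Etv4, an Ets transcription factor induced by ERK, went from 4.79, 4.85 and 5.09 to −0.51, −0.19 and −0.45 (−5.30 ± 0.12). Its relative Etv5 remained abundant, at 6.56, 6.52 and 6.73 in serum and 5.43, 5.75 and 5.75 at 24 h (−0.96 ± 0.12, adjusted p = 4.4e-05). Both fell without overlap, but by very different amounts.

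Egr1, an immediate early zinc finger factor, was 2.50, 2.55 and 2.74 in serum and −3.66, −2.40 and −1.87 at 24 h (−5.24 ± 0.38). Myc, the growth regulator, was 5.22, 5.05 and 5.23 and then −0.24, −0.26 and −0.45 (−5.48 ± 0.11, adjusted p = 2.3e-10). Fos and Ier2, named because they were the 2 members not called, are immediate early genes. Fos changed by −0.20 ± 0.21 (adjusted p = 0.43), and Ier2 by 0.40 ± 0.22 (adjusted p = 0.13), where the sign turned to −0.15 with either trend removed.

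**Figure D2:**
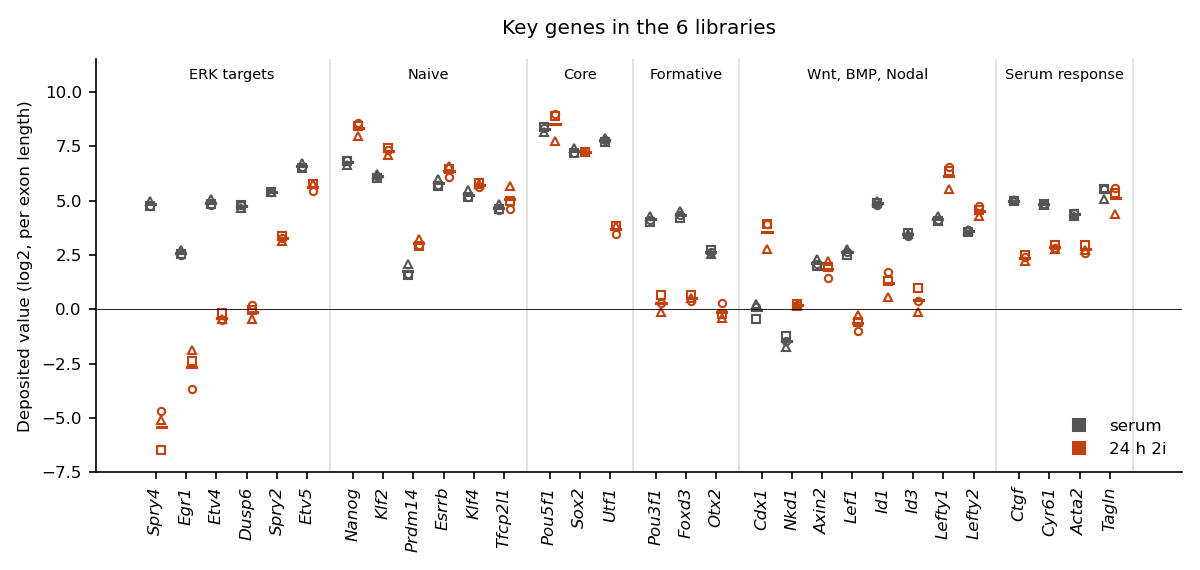
Deposited values (y axis, log2 per exon length) of named genes in the 3 serum (grey) and 3 24 h 2i (orange) libraries. Marker shapes are the replicates (circle 1, square 2, triangle 3) and bars the means. Spry4, Egr1, Etv4 and Dusp6 lie below 0.5 in every 24 h library and above 2 in every serum library, while Sox2 and Pou5f1 overlap between groups.

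The other signalling lists moved less uniformly. Of 12 tested members of the Myc and Max network, 7 were lower and none higher (median −0.73). Mycn, the Myc paralog of early embryos, fell from 5.90, 5.85 and 6.09 to 4.16, 4.37 and 4.14 (−1.72 ± 0.11). Mga and Mlxip, partners within the network, fell by 1.64 and 1.92, and with the exon length trend removed by 0.48 and 1.34. Mga is long, at 15340 bases of exon.

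Of 14 naive pluripotency factors, 8 were higher and 3 lower, with a median change of 0.46. Removal of the exon length trend left 8 higher and 4 lower with a median of 0.46, removal of the span trend 6 higher and 4 lower with a median of 0.21, and quantile normalisation 5 higher and 3 lower. Nanog (chr6:122707489-122714633), the homeodomain factor of naive cells, was 6.87, 6.83 and 6.62 in serum and 8.59, 8.42 and 7.98 at 24 h, a rise of 1.55 ± 0.17 (2.93-fold, adjusted p = 2.2e-05). Prdm14, which represses the de novo methylation genes, was 1.62, 1.60 and 2.09 and then 2.95, 2.93 and 3.23 (1.27 ± 0.14). Both groups of values were separate for these genes.

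Klf2 rose by 1.16 ± 0.13 and Dppa3 by 1.35 ± 0.26, which became 0.69 and 0.63 with the exon length trend removed. Esrrb, a nuclear receptor repressed by Tcf7l1, was 5.74, 5.68 and 5.98 in serum and 6.08, 6.46 and 6.58 at 24 h. Its rise of 0.58 ± 0.14 (adjusted p = 0.0046) was 0.87 after that removal. Klf4 rose by 0.44 ± 0.11 (adjusted p = 0.0052), but by 0.26 with the exon length trend removed (adjusted p = 0.056). For Tfcp2l1, a factor downstream of LIF, the values 4.57, 4.60 and 4.84 in serum and 4.63, 5.00 and 5.66 at 24 h overlapped (0.42 ± 0.24, adjusted p = 0.14). After removal of the trend it was called higher, by 1.11 (adjusted p = 5.8e-06), and the paired fit also called it (adjusted p = 0.044).

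The 3 naive factors that fell were Klf5, Zfp42 and Nr0b1. Klf5, a Krüppel-like factor shared with trophectoderm, was 6.36, 6.23 and 6.37 in serum and 4.01, 4.54 and 5.21 at 24 h (−1.73 ± 0.25). Zfp42, the Rex1 reporter gene of naive cells, fell by 0.81 ± 0.14 and Nr0b1 by 0.97 ± 0.18. Nr5a2 (−0.29 ± 0.15) and Tcl1 (−0.21 ± 0.12) were not called, and the change of Nr5a2 turned to 0.11 with the span trend removed.

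In the list of core pluripotency genes, 6 of 8 were lower and none higher (median −1.37). Besides Pou5f1 and Sox2 the list holds other ESC genes, among them Utf1, Trim71, Lin28a and Dppa2. Pou5f1 and Sox2, the central factors, were the 2 not called. Pou5f1 was 8.35, 8.39 and 8.14 in serum and 9.01, 8.90 and 7.73 at 24 h (0.25 ± 0.33, adjusted p = 0.52), and its sign turned under quantile normalisation (−0.49, adjusted p = 0.0065) and with either trend removed. Sox2 differed by −0.03 ± 0.11, with 7.19, 7.21 and 7.44 against 7.27, 7.25 and 7.23. With the exon length trend removed it was called lower (−0.38, adjusted p = 0.018).

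The falls differed in size. Utf1, a chromatin factor of ESCs, was 7.79, 7.71 and 7.89 in serum and 3.45, 3.84 and 3.84 at 24 h (−4.09 ± 0.12, adjusted p = 3.7e-09). Trim71 and Lin28a, which oppose let-7 microRNA, fell by 3.54 ± 0.34 and 1.45 ± 0.10. Dppa2 fell by 1.68 ± 0.12.

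Formative and primed genes fell in 15 of 17 cases (median −1.59), and in 15 of 17 after removal of the exon length trend (median −1.78). Pou3f1, the Oct6 factor of epiblast cells, was 4.13, 4.02 and 4.29 in serum and 0.30, 0.66 and −0.12 at 24 h (−3.87 ± 0.20). Foxd3 went from 4.32, 4.21 and 4.52 to 0.40, 0.65 and 0.50 (−3.83 ± 0.12). Otx2, which directs the exit from the naive state, went from 2.64, 2.74 and 2.54 to 0.30, −0.21 and −0.42 (−2.75 ± 0.26). All 3 were separate from serum in every library.

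The exceptions were Sfrp2, a secreted Wnt antagonist, and Cldn6, a tight junction protein. Sfrp2 rose by 0.43 ± 0.12, a value that was 0.01 with the exon length trend removed (adjusted p = 0.97). Cldn6 was not called (0.23 ± 0.11), and its sign turned with either trend removed.

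Wnt and beta-catenin targets split. Of 19 tested, 3 were higher and 8 lower (median −0.27), and 4 and 10 without 24 h replicate 3 (median −0.44). The 3 that rose were Cdx1, Nkd1 and Tnfrsf19. Cdx1, a caudal homeobox factor, was 0.09, −0.45 and 0.23 in serum and 3.93, 3.95 and 2.77 at 24 h (3.59 ± 0.34). Nkd1, an inhibitor of the pathway, was −1.48, −1.21 and −1.72 and then 0.18, 0.25 and 0.17 (1.67 ± 0.18), and Tnfrsf19 rose by 1.10 ± 0.11.

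Axin2, the widely used feedback target, was 2.07, 2.01 and 2.32 in serum and 1.46, 1.93 and 2.21 at 24 h, so that the groups overlapped (−0.27 ± 0.19, adjusted p = 0.23). Lef1, a partner of beta-catenin, fell from 2.64, 2.5 and 2.77 to −0.99, −0.58 and −0.26 (−3.25 ± 0.19). Cyclin D2 (Ccnd2) fell by 3.21 ± 0.21 and the primitive streak factor T by 0.76 ± 0.20. Cdx2 fell by 2.03 ± 0.72 (adjusted p = 0.028), a call lost when any serum library was left out (adjusted p of 0.052, 0.055 and 0.079) and a change of −0.92 without 24 h replicate 3.

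Genes of the BMP response fell in 9 of 14 cases, with 2 higher (median −0.77). Id1, an inhibitor of helix-loop-helix factors induced by BMP and serum, was 4.79, 4.89 and 4.98 in serum and 1.70, 1.31 and 0.57 at 24 h (−3.69 ± 0.22). Id3 went from 3.37, 3.53 and 3.47 to 0.36, 0.99 and −0.14 (−3.05 ± 0.30). Neither gene overlapped between the groups, whereas Id4 rose by 1.33 ± 0.14. Without 24 h replicate 3, the number of members higher was 4.

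The ligand Bmp4 was 3.18, 3.39 and 3.52 in serum and 0.12, −0.09 and −0.13 at 24 h (−3.39 ± 0.13). The ligand Bmp7 was −1.38, −1.72 and −0.79 in serum and 2.08, 2.31 and 2.43 at 24 h (3.57 ± 0.20, adjusted p = 1.9e-07). The type 2 receptor Bmpr2 fell by 3.34 ± 0.30. These changes differed by at most 0.41 after removal of the exon length trend, where Bmp4 changed by −3.80 and Bmp7 by 3.57.

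Of 14 Nodal pathway genes, 4 were higher and 5 lower (median −0.06, or 0.09, −0.11 and −0.13 without 24 h replicate 1, 2 or 3). Lefty1, a secreted Nodal inhibitor, was 4.11, 4.07 and 4.30 in serum and 6.57, 6.36 and 5.53 at 24 h (1.99 ± 0.23). Lefty2 rose by 0.92 ± 0.13, while the repressor Skil fell by 1.71 ± 0.14. Nodal itself was not called (0.16 ± 0.10, adjusted p = 0.19), and with the exon length trend removed it was called lower (−0.27, adjusted p = 0.020).

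In the LIF and Stat3 pathway, 2 of 14 genes were higher and 6 lower (median −0.12, −0.39 with the span trend removed, −0.30 with the exon length trend removed, −0.24 without 24 h replicate 2 and 0.01 without replicate 3). The receptor Lifr went from 3.10, 3.09 and 3.19 to 1.45, 1.23 and 1.65 (−1.69 ± 0.17), and its partner Il6st fell by 0.88 ± 0.18. Lifr has 10330 bases of exon, and its fall was 0.90 with the exon length trend removed. Gbx2 fell by 1.67 ± 0.14. The target Socs3 was not called (0.05 ± 0.10), and its sign turned under quantile normalisation and with either trend removed (−0.39 for span, adjusted p = 0.0076). Stat3 was lower by 0.40 ± 0.13 (adjusted p = 0.021) but was called higher with the exon length trend removed (0.31, adjusted p = 0.015), and it lost its call without 24 h replicate 1 (−0.28), 24 h replicate 2 (−0.40) or serum replicate 3 (−0.33). Without 24 h replicate 1, the members called higher numbered 4.

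Genes of the serum response and YAP targets fell in 18 of 22 cases, with 1 higher (median −1.38). With the exon length trend removed, 19 were lower and 1 higher (median −1.15). Ctgf (chr10:24595442-24598683), a matricellular YAP target, was 5.01, 4.98 and 5.04 in serum and 2.40, 2.49 and 2.23 at 24 h (−2.63 ± 0.10, 6.21-fold lower). Cyr61 went from 4.85, 4.83 and 4.79 to 2.82, 2.95 and 2.78 (−1.98 ± 0.09), and thrombospondin 1 (Thbs1) from 4.15, 4.06 and 4.38 to 0.66, 0.88 and 1.03 (−3.34 ± 0.14). The 3 libraries of each group were tightly spaced for these genes.

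Smooth muscle actin (Acta2) fell by 1.62 ± 0.14 and myosin light chain 9 (Myl9) by 2.52 ± 0.22. Tagln was not called, with 5.54, 5.56 and 5.07 in serum against 5.57, 5.37 and 4.39 at 24 h (−0.28 ± 0.34, adjusted p = 0.49), and was called lower with the exon length trend removed (−0.81). Tagln2, the member that rose, changed by 0.87 ± 0.12. Lats2, a kinase of the Hippo pathway and itself a YAP target, fell by 2.36 ± 0.23.

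Matrix and integrin genes were lower in 11 of 17 cases and higher in none (median −0.69). Their median exon length is 7021 bases, against 3390 over all tested genes. With the exon length trend removed 8 were lower and 1 higher (median −0.32). Integrin alpha 3 (Itga3) fell by 2.65 ± 0.18, or 2.41 after removal. Perlecan (Hspg2) fell by 2.41 ± 0.37, or 1.32. The laminin chains Lamc1 and Lama5 fell by 1.52 ± 0.28 and 1.46 ± 0.30, and by 0.93 and 0.58 after removal.

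Among 15 adhesion and gap junction genes, 6 were higher and 7 lower, and the median of 0.05 turned negative under quantile normalisation and with either trend removed (−0.32 for exon length). It was 0.01 without 24 h replicate 1 or 2 and 0.14 without replicate 3. Claudins 4 and 3 rose together, Cldn4 from 4.34, 4.44 and 4.33 to 6.34, 6.41 and 5.74 (1.79 ± 0.19) and Cldn3 by 1.79 ± 0.20. The gap junction gene Gja1 went from 6.04, 5.99 and 5.85 to 3.75, 3.76 and 3.69 (−2.23 ± 0.13). Tjp1 fell by 1.74 ± 0.26.

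Cholesterol synthesis genes rose in 20 of 22 cases, with none lower (median 1.19). Removal of the exon length trend gave 21 higher and none lower (median 1.11). The per-library medians were 1.34, 1.29 and 0.98 at 24 h. Insig1 (chr5:28071363-28078662), the sterol sensor that holds back this programme, was 3.81, 3.88 and 3.67 in serum and 6.65, 6.43 and 5.98 at 24 h (2.57 ± 0.16, 5.93-fold, adjusted p = 3.4e-07). The enzymes Sc4mol, Tm7sf2 and Dhcr7 rose by 2.20 ± 0.10, 1.85 ± 0.13 and 1.81 ± 0.11. Hsd17b7, which was not called, overlapped between groups (0.23 ± 0.11).

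Fatty acid synthesis genes were higher in 8 of 12 cases and lower in 3 (median 0.54). The desaturases Scd1 and Fads1 rose, Scd1 from 3.31, 3.24 and 3.55 to 5.26, 5.25 and 5.31 (1.91 ± 0.12) and Fads1 by 1.75 ± 0.11. Acss2, which makes acetyl-CoA from acetate, rose by 1.62 ± 0.17. The 3 that fell were the chain-building enzymes Acaca, Fasn and Elovl6. Fasn went from 5.84, 5.81 and 6.19 to 4.22, 4.85 and 5.18 (−1.2 ± 0.24), and Acaca changed by −1.22 ± 0.21. Both are long, and after removal of the exon length trend their falls were 0.46 and 0.45, still called. Elovl6 fell by 0.61 ± 0.17, or 0.32 after removal.

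**Figure D3:**
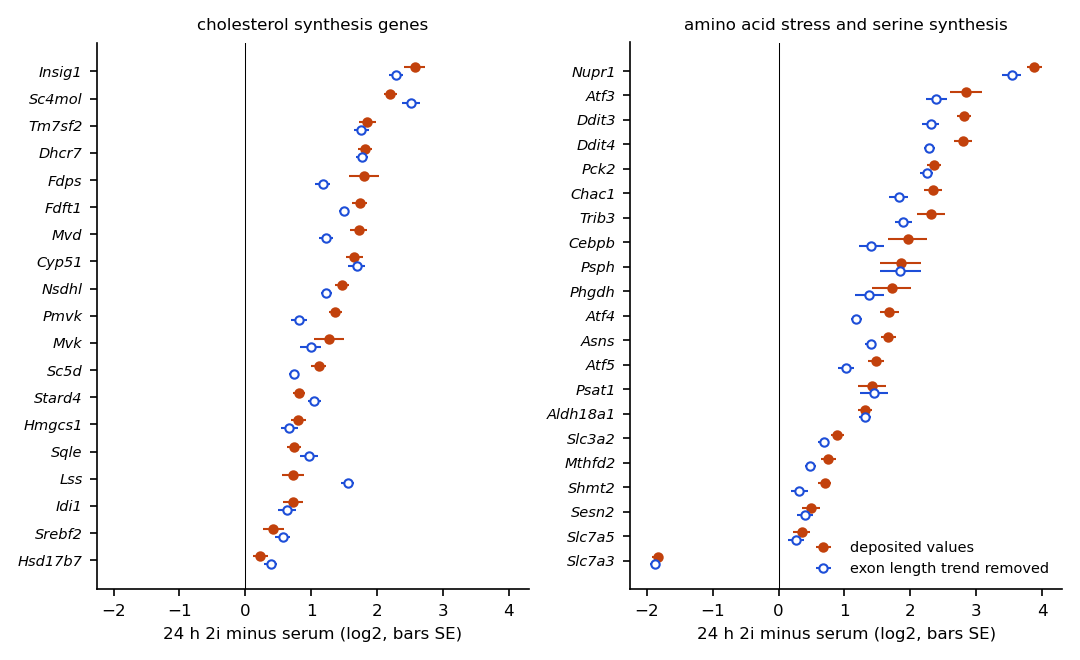
Change at 24 h 2i against serum (x axis, log2, bars SE of the fit) for genes of the cholesterol list (left) and each tested gene of the amino acid stress and serine list (right). Filled orange points are the deposited values and open blue points the fit with the exon length trend removed. Some members of the cholesterol list are not drawn, and its changes ran from −0.20 to 2.57 over all 22 tested. On the right, Slc7a3 lies below 0.

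Genes of the amino acid stress response and serine synthesis rose in 20 of 21 cases, with 1 lower (median 1.68). With the exon length trend removed, 18 were higher and 1 lower (median 1.40). This response runs through the factor ATF4, which binds the amino acid response element in the promoters of its targets. The element was searched for as TGATGNAA on both strands of promoters from RefSeq (GRCm38.p6), 250 bases before to 50 after each start. Of 12284 tested symbols, 8326 had at least 1 promoter in the table (10656 promoters in all) and the others were not searched. The element was present in a promoter of 211 of the 8326 genes (2.53%), and among these in 2.67% of the 2773 called higher, 2.26% of the 2517 called lower and 2.64% of the 3036 not called. Of the 19 list members with a promoter, 6 held it (31.6%). The list was chosen as genes of this response, so its share against 2.53% is not a test. The windows are given because the 2 largest rises of the list, Nupr1 and Atf3, are among them. Each is printed on the strand where the element reads in this direction, with the element in capitals.

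Nupr1: aagccctgtcTGATGCAAtctggccctt
Atf3: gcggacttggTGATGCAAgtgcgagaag
Pck2: tgtaagatacTGATGTAActttgaaggc
Chac1: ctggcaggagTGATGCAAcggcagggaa
Trib3: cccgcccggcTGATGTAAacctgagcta
Asns: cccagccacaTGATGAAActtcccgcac

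These windows lie at chr7:126625563-126625590 (+) for Nupr1, chr1:191183426-191183453 (+) for Atf3, chr14:55540153-55540180 (−) for Pck2, chr2:119351039-119351066 (−) for Chac1, chr2:152344029-152344056 (+) for Trib3 and chr6:7693215-7693242 (−) for Asns. A match of letters is a description and not evidence of binding, and no match says only that these letters are not in the window. In the cholesterol list, the sterol regulatory element, searched as TCACNCCAC, was found for 1 of 15 genes with a promoter (Hmgcs1), against 122 of 8326 genes (1.47%) overall.

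Nupr1 (chr7:126623249-126627010), a stress-induced chromatin protein, was 1.07, 0.67 and 0.91 in serum and 4.71, 4.74 and 4.85 at 24 h (3.88 ± 0.12, 14.8-fold, adjusted p = 4.3e-09). Atf3 was 0.48, 0.51 and −0.08 and then 3.40, 3.32 and 2.72 (2.85 ± 0.24). Ddit3, the CHOP factor, was 1.51, 1.70 and 1.53 and then 4.4, 4.39 and 4.4 (2.81 ± 0.11). No library of one group reached the other for these genes.

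The inhibitor of mTORC1 Ddit4 rose by 2.80 ± 0.14. The other genes whose promoters held the element were asparagine synthetase (Asns), at 5.96, 6.03 and 5.94 in serum and 7.68, 7.75 and 7.50 at 24 h (1.66 ± 0.11), Pck2 (2.36 ± 0.11), Chac1 (2.34 ± 0.13) and Trib3 (2.31 ± 0.22). Slc7a3, a transporter of cationic amino acids and the single member that fell, went from 4.70, 4.82 and 4.77 to 2.98, 2.96 and 2.84 (−1.83 ± 0.09).

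All 79 cytosolic ribosomal protein genes were higher on the deposited values (median 1.18). Their median exon length is short, at 1481 bases, and with the exon length trend removed 66 of 78 were higher and none lower (median 0.65). Under quantile normalisation 59 were higher and 2 lower (median 0.46). The rise was uneven between the libraries, with medians of 1.67, 1.39 and 0.59 in 24 h replicates 1, 2 and 3, in the same order as the length trend. Rpl39 was 5.75, 5.90 and 5.82 in serum and 9.23, 8.07 and 6.40 at 24 h (2.07 ± 0.58, adjusted p = 0.0087), and Rps14 (1.83 ± 0.52), Rps27 (1.83 ± 0.47) and Rps3 (1.77 ± 0.43) were spread as widely. Many processed copies of these genes exist in the genome, and reads shared with them may have been counted elsewhere.

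Nuclear genes of the respiratory chain were higher in 75 of 81 cases and lower in 1 (median 1.10), and in 55 and 1 with the exon length trend removed (median 0.55). Their library medians were 1.5, 1.30 and 0.45 at 24 h. Cox6a2, a heart and muscle isoform of a cytochrome c oxidase subunit, had no reads in serum and 23, 17 and 18 at 24 h, at least 19.5-fold higher against a floor of 3 reads over the serum group. Cox7a1, the muscle form of another subunit, was 2.65, 2.25 and 2.34 in serum and 5.59, 5.26 and 4.27 at 24 h (2.63 ± 0.29), and the testis form Cox6b2 rose by 2.60 ± 0.19. Ndufb4 rose by 1.93 ± 0.36.

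Mitochondrial ribosomal proteins rose in 42 of 76 cases, with 1 lower (median 0.52), and Mrpl14 rose by 1.66 ± 0.35. The count varied with the library left out: without 24 h replicate 1 there were 16 higher, without replicate 2 there were 15, and without replicate 3 there were 59. Once the exon length trend was removed, 18 were higher and 10 lower (median 0.09). Of the 13 genes encoded in mitochondrial DNA, 5 were higher and 1 lower, and the median of 0.42 turned to −0.18 with the span trend removed, to −0.50 over the 5 with an exon length once that trend was removed, and to −0.47 under quantile normalisation. In 24 h replicates 1, 2 and 3 the median was 0.80, −0.26 and 0.64, and leaving out each in turn gave medians of 0.16, 0.72 and 0.23 with 0, 0 and 2 lower. Of them, mt-Co3 was 11.56, 11.47 and 11.64 in serum and 14.08, 13.10 and 12.59 at 24 h (1.70 ± 0.39), and mt-Nd3 rose by 1.67 ± 0.50. The member that fell, mt-Nd6, changed by −1.49 ± 0.51 (adjusted p = 0.025), and its call was lost without 24 h replicate 1 (−1.42) or 2 (−1.13) and without serum replicate 1 (−1.43) or 3 (−1.30). The genes mt-Nd6 and mt-Nd5 overlap on opposite strands, and the library kit does not mark strand.

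Proteasome subunits were higher in 5 and lower in 5 of 36 cases (median 0.36), and in 1 and 11 with the exon length trend removed (median −0.03) and 4 and 9 under quantile normalisation. The number higher was 1 without 24 h replicate 1, 2 without replicate 2 and 22 without replicate 3 (medians of 0.20, 0.29 and 0.55), and 19 in the paired fit. Psmb1, a core subunit, was 6.96, 7.01 and 6.51 in serum and 8.75, 8.30 and 7.27 at 24 h (1.28 ± 0.36), and the immunoproteasome subunit Psmb10 fell by 1.07 ± 0.33. Histone cluster genes, of which 28 of 68 were tested, were higher in 21 cases and lower in none (median 1.02). With a median exon length of 525 bases, they numbered 7 higher and none lower with the exon length trend removed (median 0.25). The linker histone Hist1h1a rose by 3.18 ± 0.50 and Hist3h2a by 1.91 ± 0.23. Most histone messages lack a poly(A) tail, and copies within the clusters are alike in sequence, so their levels are uncertain.

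**Figure D4:**
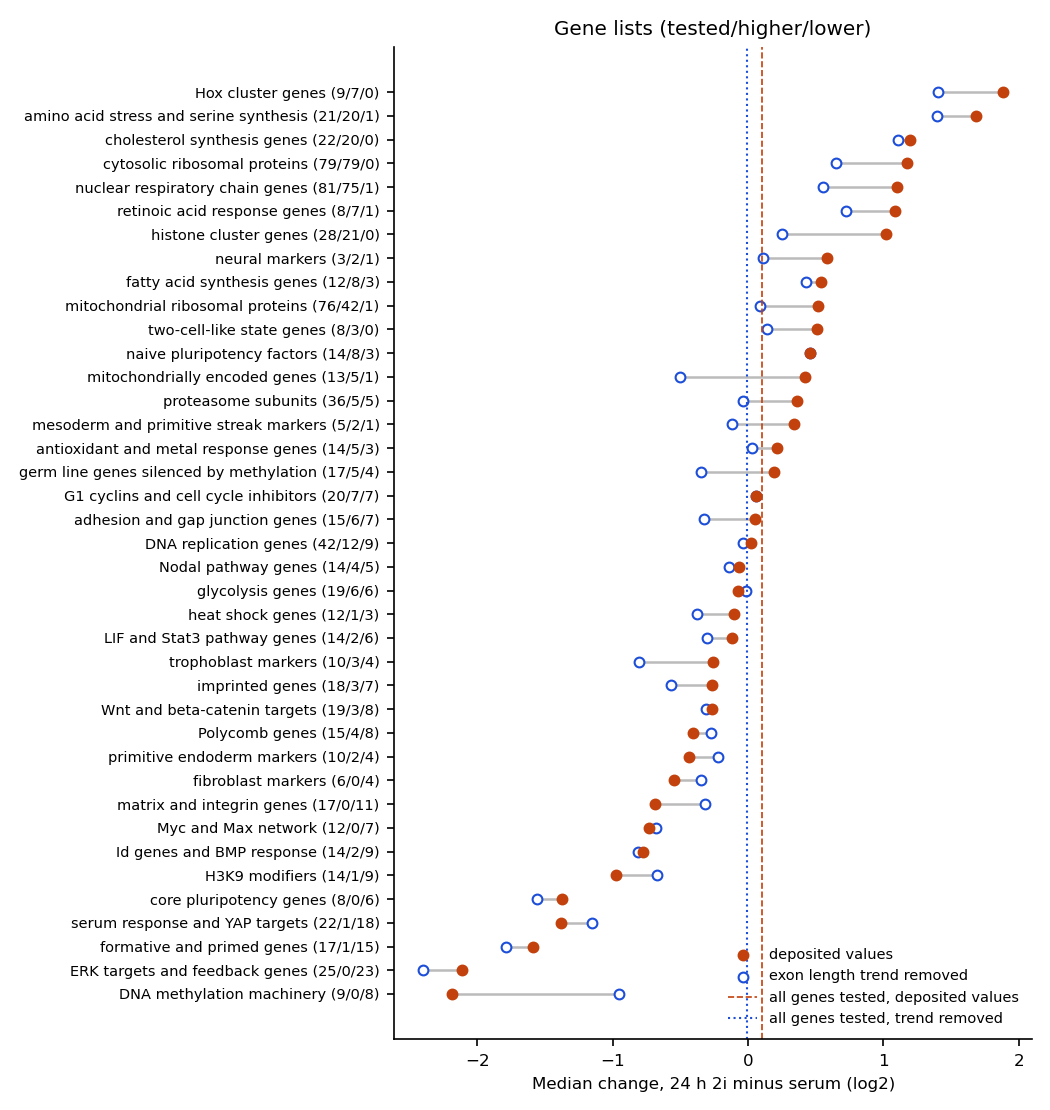
Median change at 24 h 2i against serum (x axis, log2) of the tested members of each of the 39 gene lists, with the numbers tested, higher and lower on the deposited values in brackets. Filled orange points are the deposited values and open blue points the fit with the exon length trend removed, and the vertical lines are the medians over all genes tested. The ERK list lies at −2.11 and −2.40, the DNA methylation list at −2.19 and −0.95, and the cytosolic ribosomal proteins at 1.18 and 0.65.

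The median of the DNA methylation machinery moved with exon length. Of 9 genes, 8 were lower and none higher, and the median of −2.19 became −0.95 with the exon length trend removed, when 7 were lower. Dnmt3a, a de novo methyltransferase with 16642 bases of exon, was 3.00, 2.94 and 3.18 in serum and 0.71, 0.86 and 0.98 at 24 h. Its change of −2.19 ± 0.11 was −0.95 after removal, and the medians of the list in both fits are those of this gene. For the shorter Dnmt3l, with 2988 bases, the change was −3.59 ± 0.13 before and −3.80 after, and for Dnmt3b −3.34 ± 0.13 and −3.18.

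The dioxygenases Tet1 and Tet2 fell by 2.91 ± 0.26 and 2.58 ± 0.34, or 1.79 and 1.91 after removal. The maintenance methyltransferase Dnmt1 was 5.63, 5.57 and 5.91 in serum and 4.46, 4.86 and 5.32 at 24 h (−0.83 ± 0.21, or −0.49 after removal). Uhrf1, which brings it to hemimethylated DNA, was the gene not called, at 5.87, 5.81 and 6.05 against 5.95, 6.07 and 5.96 (0.08 ± 0.11), and its sign turned under quantile normalisation and with the span trend removed. Tdg, the glycosylase, was lower by 0.41 ± 0.10 and not called after removal (−0.21, adjusted p = 0.11).

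H3K9 modifiers were lower in 9 of 14 cases and higher in 1 (median −0.97), and in 8 and 2 with the exon length trend removed (median −0.67). Kdm4c, a demethylase, fell by 1.35 ± 0.14, and the corepressor Trim28 went from 8.76, 8.68 and 8.85 to 7.42, 7.72 and 7.55 (−1.2 ± 0.12). Ehmt1 and Kdm3b fell by 1.19 ± 0.18 and 1.16 ± 0.21, and by 0.74 and 0.71 after removal. Suv39h2 was the gene called higher (0.33 ± 0.13, adjusted p = 0.049), and it was called without 24 h replicate 3 alone, while the other 5 omissions gave changes of 0.21 to 0.39 that were not called.

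Polycomb genes were higher in 4 of 15 cases and lower in 8 (median −0.41). Jarid2, which guides PRC2, went from 5.92, 5.92 and 6.19 to 2.67, 2.94 and 3.38 (−3.01 ± 0.18, or −2.28 with the exon length trend removed). Kdm2b, which recruits PRC1 to CpG islands, fell by 1.42 ± 0.12, or 0.50 after removal. Its partner Pcgf1 rose by 1.33 ± 0.13 and Bmi1 by 0.95 ± 0.19.

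Hox genes are targets of Polycomb repression. Of 39 in the clusters, 9 passed the filter, and 7 of these were higher and none lower (median 1.88, or 1.40 with the exon length trend removed, with 5 higher). The filter admits a gene that is high in 1 group of 3 libraries, so the 9 are not a sample of all Hox genes. Hoxc13 had 34, 36 and 52 reads in serum and 199, 237 and 252 at 24 h (2.52 ± 0.12). Hoxd8, Hoxb13 and Hoxa7 rose by 2.40 ± 0.31, 2.31 ± 0.33 and 1.88 ± 0.19 from 5 to 20 reads a library in serum.

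Of 12 retinoic acid response genes, 8 passed the filter, and 7 of these were higher and 1 lower (median 1.09). The largest rise among them, of 3.59, was that of Cdx1, which is also counted among the Wnt targets. With the exon length trend removed, 5 were higher and 1 lower (median 0.72). The binding protein Crabp1 rose by 1.70 ± 0.21, and the receptor Rarg fell from 5.85, 5.76 and 5.97 to 4.18, 4.57 and 4.52 (−1.44 ± 0.12). Stra8, the meiotic gatekeeper induced by retinoic acid, was 1.58, 1.32 and 1.47 and then 4.51, 4.48 and 4.07 (2.90 ± 0.14).

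Germ line genes silenced by methylation were higher in 5 of 17 cases and lower in 4, near the 34.2% and 29.1% of all genes tested. Their median of 0.19 turned to −0.07 with the span trend removed and −0.35 with the exon length trend removed. The number lower was 9 with the exon length trend removed and 2 without 24 h replicate 2, and leaving out 24 h replicate 1, 2 or 3 gave medians of −0.00, 0.08 and 0.44. Sycp3, of the synaptonemal complex, was 3.39, 3.22 and 2.88 in serum and 6.83, 5.99 and 5.43 at 24 h (2.92 ± 0.31). Brdt rose by 0.99 ± 0.17 and Piwil2 fell by 1.32 ± 0.13. Dazl, the RNA-binding protein of germ cells, was not called, at 1.15, 1.14 and 0.81 against 2.03, 1.35 and 0.82 (0.37 ± 0.25).

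Lineage markers are set against the shares over all genes tested, 34.2% higher and 29.1% lower. Of 10 trophoblast markers tested, 3 were higher and 4 lower (median −0.26), near those shares. There were 3 higher with 5 lower after removal of the span trend (median −0.71), or 6 lower after removal of the exon length trend (median −0.81). The median was −0.12 without 24 h replicate 1 and −0.40 without replicate 2. Hand1, Gata3 and Eomes fell by 2.13 ± 0.21, 2.04 ± 0.26 and 1.75 ± 0.19, with 45 to 168 reads a library in serum and 12 to 47 at 24 h. Tfap2c, which is also active in naive cells, rose from 2.88, 2.78 and 3.05 to 4.12, 4.42 and 4.37 (1.40 ± 0.11). Of 15 primitive endoderm markers, 10 were tested. Of these, 2 were higher and 4 lower (median −0.44, or −0.19 with the span trend removed and −0.22 with the exon length trend removed). Cubn fell by 3.08 ± 0.35, Foxq1 and Gata4 rose by 1.22 ± 0.19 and 0.57 ± 0.15, and Gata6 was not called (−0.22 ± 0.19). Without 24 h replicate 3, the number lower was 6, and with the exon length trend removed it was 2.

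Of 10 mesoderm and primitive streak markers, 5 were tested. Of these, 2 were higher and 1 lower, and the median of 0.34 turned to −0.12 with the exon length trend removed. Gsc had 3, 1 and 4 reads in serum and 71, 48 and 21 at 24 h (4.19 ± 0.55), and Fgf8 rose by 2.33 ± 0.29. Of 10 neural markers, 3 were tested. Sox1 (0.58 ± 0.19) and Tubb3 (0.59 ± 0.12) were higher and Nes lower (−0.87 ± 0.23), with a median of 0.58. With the span or the exon length trend removed, 1 was higher and 1 lower, with medians of 0.17 and 0.11. Tubb3 was not called with the exon length trend removed (0.11), and Sox1 was lost without 24 h replicate 3 (0.46), serum replicate 1 (0.49) or serum replicate 2 (0.50). Of 12 fibroblast markers, 6 were tested. Of these, 4 were lower and none higher (median −0.55), with 2 lower and 1 higher after removal of the exon length trend (median −0.35).

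Of 12 genes of the two-cell-like state, 8 were tested. Of these, 3 were higher and none lower (median 0.51), and 1 was higher with the exon length trend removed (median 0.14). The number higher was 2 without 24 h replicate 1 or 2, 6 without replicate 3, and 6 in the paired fit. Tcstv1 rose by 1.37 ± 0.27. These genes belong to families of near-identical copies, so their values are uncertain. Imprinted genes were lower in 7 of 18 cases and higher in 3 (median −0.26), and in 11 and 4 with the span trend removed (median −0.67) and 8 and 5 with the exon length trend removed (median −0.57). Peg10, derived from a retrotransposon, was 6.98, 6.94 and 7.09 in serum and 4.10, 4.38 and 4.91 at 24 h (−2.54 ± 0.18).

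Other imprinted genes that fell were Mest (−2.04 ± 0.09), Peg3 (−2.02 ± 0.27) and the noncoding Meg3 (−1.98 ± 0.55). Peg3 and Meg3 have 13314 and 18089 bases of exon, and with that trend removed Peg3 fell by 0.99 while Meg3 was not called (−0.67, adjusted p = 0.080). Sgce, Phlda2 and Plagl1 rose by 1.56 ± 0.21, 1.51 ± 0.20 and 1.13 ± 0.29.

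Of 20 G1 regulators, 7 were higher and 7 lower (median 0.06, but 0.13 without 24 h replicate 2 and −0.04 without replicate 3). Grouped after their values were seen, 6 of the 7 cyclin-dependent kinase inhibitors were higher and 1 lower, and all 5 D and E cyclins were lower, with the same numbers after removal of the exon length trend. Cdkn1a, the p21 inhibitor, was 3.83, 3.87 and 3.85 in serum and 6.21, 6.35 and 5.89 at 24 h (2.30 ± 0.13). Cdkn2c rose by 3.25 ± 0.27. The inhibitor that fell was Cdkn1c (−0.48 ± 0.16, adjusted p = 0.024), whose call was lost without 24 h replicate 3 (−0.30), serum replicate 1 (−0.46) or serum replicate 3 (−0.48).

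Cyclin D1 (Ccnd1), an ERK target, was 4.75, 4.80 and 5.00 in serum and 2.92, 3.27 and 3.04 at 24 h (−1.77 ± 0.11), and its kinase Cdk6 fell by 2.52 ± 0.19. DNA replication genes were higher in 12 and lower in 9 of 42 cases, with a median of 0.02 that turned to −0.04 with the exon length trend removed and also turned under quantile normalisation. With the span trend removed 17 were lower and 11 higher, with the exon length trend removed 13 and 10, and without 24 h replicate 2 there were 6 lower. Leaving out 24 h replicate 1, 2 or 3 gave medians of −0.01, 0.01 and 0.11. Rpa3, Rfc4 and Pold2 rose by 1.43 ± 0.40, 1.2 ± 0.32 and 0.94 ± 0.12.

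Glycolysis genes were higher in 6 and lower in 6 of 19 cases (median −0.07). Under quantile normalisation 2 were higher and 9 lower (median −0.40), with the span trend removed 5 and 8 (median −0.23), and without 24 h replicate 1, 2 or 3 the median was −0.14, −0.18 and 0.15. Pdk1, which keeps pyruvate from the mitochondria, went from 4.08, 4.05 and 3.85 to 1.66, 1.74 and 1.63 (−2.31 ± 0.11), and hexokinase 2 (Hk2) and the glucose transporter Slc2a1 fell by 1.41 ± 0.19 and 1.14 ± 0.10. Ldhb, the lactate dehydrogenase of oxidative tissues, was 5.99, 5.93 and 5.72 and then 8.09, 8.10 and 7.79 (2.11 ± 0.14). All 4 were separate between the groups.

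Antioxidant and metal response genes were higher in 5 and lower in 3 of 14 cases, and the median of 0.21 turned to −0.08 with the span trend removed (3 higher and 4 lower) and under quantile normalisation (4 and 5), and was 0.03 with the exon length trend removed (3 and 5). Gpx4, which protects lipids from peroxidation, rose by 2.40 ± 0.42 and ferritin light chain (Ftl1) by 1.80 ± 0.24. The metallothioneins Mt1 and Mt2 rose by 1.5 ± 0.17 and 0.81 ± 0.20, which with the exon length trend removed were 0.69 and 0.00. Leaving out 24 h replicate 1, 2 or 3 gave 2 lower each time and medians of 0.07, 0.14 and 0.44. Of 12 heat shock genes, 1 was higher and 3 lower (median −0.11). None was higher and 7 were lower with the span trend removed (median −0.55), none and 6 of 10 with the exon length trend removed (median −0.38), and none and 7 under quantile normalisation (median −0.77). Hsph1, Hspd1 and Hspa5 fell by 1.56 ± 0.14, 1.12 ± 0.12 and 0.71 ± 0.17. Hspe1 was higher by 0.73 ± 0.28, a call lost with either trend removed and without 24 h replicate 1 (0.48) or 2 (0.65) or serum replicate 1 (0.78) or 3 (0.56). The number higher was 2 without 24 h replicate 3 and none without replicate 2.

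The largest rises beyond these lists were of low or silent genes in serum. Trpm1 (chr7:64153835-64269775), a cation channel of melanocytes and retina, had 13, 8 and 12 reads in serum and 816, 825 and 860 at 24 h (6.28 ± 0.19, 77.7-fold, adjusted p = 3.7e-09). The calcium-binding genes S100a13 and S100a1 are neighbours on chromosome 3. S100a13 was 1.16, 1.04 and 1.18 in serum and 7.42, 6.90 and 6.24 at 24 h (5.73 ± 0.30), and S100a1 was 0.62, 0.02 and 0.33 and then 5.61, 5.47 and 4.78 (4.96 ± 0.25). After removal of the exon length trend, S100a13 rose by 4.96 and Trpm1 by 7.17.

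Cidea, a lipid droplet protein, rose by 4.76 ± 0.35 (4, 9 and 14 reads, then 245, 206 and 196) and the lipase inhibitor G0s2 by 4.59 ± 0.41 (3, 8 and 5 reads, then 128, 126 and 102). Adssl1, an enzyme of purine nucleotide cycling in muscle, rose by 4.31 ± 0.34. Tmem117 and Bpifb5, with at most 8 reads in any serum library, rose by 4.88 ± 0.48 and 4.29 ± 0.53. For Cpvl, a carboxypeptidase, 2 reads in serum became 62 at 24 h, a ratio of 31.3 (95% interval 8.30 to 264). In addition, 2 rises of this size belonged to genes with clone or predicted names.

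**Figure D5:**
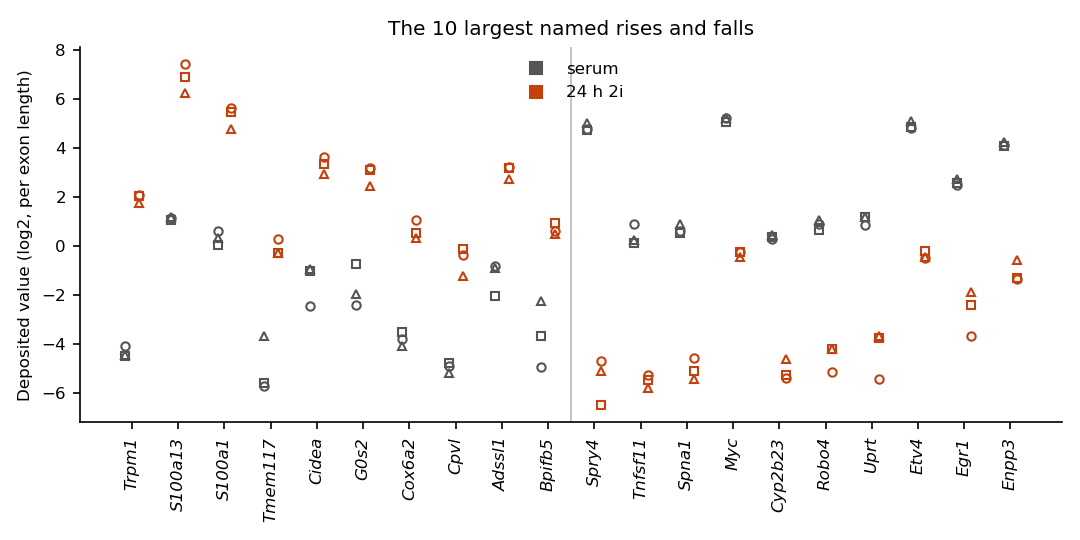
Deposited values (y axis, log2 per exon length) of the 10 largest named rises (left of the line) and falls (right) in the 3 serum (grey) and 3 24 h 2i (orange) libraries. Marker shapes are the replicates (circle 1, square 2, triangle 3). A gene without reads has the value of 0.9 reads, so the lowest points are set by depth and exon length. Genes were chosen without overlap between the groups.

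The largest falls included 4 ERK genes given above, Spry4, Myc, Etv4 and Egr1. Enpp3, an ectonucleotidase, was 4.11, 4.09 and 4.22 in serum and −1.33, −1.31 and −0.57 at 24 h (−5.21 ± 0.21). The cytokine Tnfsf11 (RANKL) went from 177 reads over the serum libraries to 1, a ratio of 175 (95% interval 31.1 to 6965). Cyp2b23, a cytochrome P450 with close relatives, went from 163 reads to 3, a ratio of 53.8 (18.1 to 264).

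Spna1, which encodes erythroid alpha spectrin, had 278, 218 and 410 reads in serum and 7, 5 and 5 at 24 h (−5.70 ± 0.32). Robo4 and Uprt fell by 5.37 ± 0.36 and 5.37 ± 0.40. Separation from serum in every library was a condition of this choice of genes. In addition, 2 falls of this size belonged to genes with clone or predicted names.

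The 6 h and 72 h libraries share the serum controls with 24 h, so their changes are given side by side only. The ERK list had medians of −1.73 at 6 h, −2.11 at 24 h and −2.10 at 72 h. Etv4 changed by −1.07, −5.30 and −5.69, and Dusp6 by −5.28, −4.86 and −5.41. The amino acid list had medians of 0.72, 1.68 and 1.37, and the cholesterol list 0.41, 1.19 and 1.03. For cytosolic ribosomal proteins they were −0.05, 1.18 and 0.53. Lefty1 changed by 1.34, 1.99 and −1.41, and Klf5 by −1.10, −1.73 and −0.16. The shortest minus the longest exon length quintile was 0.12, 0.01 and −0.18 in the 6 h libraries and 0.48, 1.11 and 0.12 at 72 h, beside 1.71, 1.44 and 0.52 at 24 h.

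H3K9me2, a repressive histone mark, was measured by ChIP-seq in 2 serum and 2 24 h libraries. Over the span of genes, the median enrichment (bound minus input, log2, in bins of 2000 bases) was −1.97 and −2.09 in serum and −2.05 and −2.07 at 24 h for genes called higher. For genes called lower it was −1.93 and −2.0 and then −2.04 and −2.05, and for genes not called −2.07 and −2.18 and then −2.15 and −2.17. The mean change was −0.03, −0.08 and −0.03 in these classes, against differences of 0.11, 0.08 and 0.10 between the 2 serum libraries. By span quintile, the change over the span went from 0.24 in the shortest to −0.25 in the longest for genes called higher and from 0.32 to −0.25 for genes not called, and for genes called lower it was 0.13, 0.23, 0.04, −0.12 and −0.24. In the bin at the gene start the change was 0.19 for genes called higher, 0.26 for genes called lower and 0.31 for genes not called. The differences between the 2 serum libraries in that bin were 0.08, 0.05 and 0.16. Each condition had 1 input library, subtracted from both of its ChIP libraries. A difference between conditions therefore carries that between 2 single inputs, which the difference between the serum libraries does not measure. The values are signal per bin relative to input, with no known reference for the total amount of the mark. They compare regions and cannot show whether the mark rose or fell over the whole genome. By western blot and immunofluorescence, the study reports a loss of this mark after the change of medium, which was not tested here. Medians in the bin at the start recurred at the same values in different classes, so small differences there are coarse.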

How the data were processed

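The authors deposited log2 values per gene and library (TruSeq RNA v2 kit, which does not mark strand, single-end reads). No source used here names the aligner or counter of the RNA-seq. The submitters' processing notes name Trim Galore 0.3.5, TopHat2 2.0.11, Bismark 0.12.3 and Bowtie2 for the series, without roles. Gene positions overlapped those of RefSeq GRCm38.p6 for 99.6% of 20595 matched symbols. Low values fell on whole steps, which gave reads and exon lengths for 25952 of 25965 genes, and a gene without reads had been given the value of 0.9 reads. The exon length is a value of the gene as a whole and need not be the length of any transcript. Depth limits only genes of few reads, and intervals cover counting error only.

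Tests used limma 3.58.1 (R 4.3.3, lmFit and eBayes with trend) on the deposited log2 values of all 12 libraries, with Benjamini-Hochberg adjustment over 12306 genes with a value of 0 or more in at least 3 libraries. Changes are differences of means with their SE, from a spread pooled over all 12 libraries. Where the 24 h libraries differ more among themselves than the others do, p-values and SEs can understate that spread. Length trends were removed per library by lowess (span 0.3) of the deviation from the serum mean, by genomic span and, chosen after seeing the data, by exon length. Deviations from group means correlated between serum and 24 h libraries of the same number at r of 0.27, 0.11 and 0.47 (0.26, 0.07 and 0.44 with the span trend removed). On the deposited values r was over 0.1 in every pair, so a paired fit was run as an alternative. The pairing is weak, since serum 2 correlated more with 24 h 1 (0.34) than with 24 h 2, and serum 1 with 24 h 2 at 0.11. Scripts were tested on simulated data. Deposited H3K9me2 values are log2 signal per bin, and the 1 input library of each condition was subtracted.

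The members and the 39 lists (those named in the report) were chosen with earlier results of these data known. Lists share some members, among them Cdx1, Ccnd2 and T, so their counts are not independent. Named genes were key genes of the lists, up to 4 called members of each with the largest change, members not called in lists of at most 20, and the 10 largest rises and falls called in the same direction with the span trend removed and without overlap, clone and predicted names left out. Exceptions are stated where named, and some genes that the rule names are not reported here or drawn, though the counts and medians of lists include them. Of the 195 genes named with values, 47 overlap another gene of the table, and their reads cannot be told apart by strand.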

Additional observations from a re-analysis of the deposited data

How the results depend on the processing

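With a minimum change of 1 (log2), 3378 genes were called, 1857 higher and 1521 lower, and 10 lists had more than 50% of their members called one way, against 22 without it. Leaving out 1 library gave 6698 to 8845 calls, 3482 to 4919 higher and 3155 to 3926 lower, and 18 to 25 such lists. With a length trend removed and a 24 h library left out these were 6765 to 8550, 3239 to 4222, 3517 to 4328 and 16 to 22. The fit with replicates as a block, which pairs serum and 24 h libraries by number, gave 8739 calls and 24 lists, and of the 195 named genes it changed the call of Tfcp2l1 alone. Other settings, among them 6 libraries alone (6802), quantile normalisation (7860), median centring (7822), a pseudocount (7812), no filter (8966 of 25965) and, chosen after seeing the data, voom on recovered reads (7766), stayed within 1.5 times the 7786 calls.

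The median change of the shortest minus the longest genes by span was 0.945, and 0.752 to 1.20 with 1 library left out. It was 0.0659 with the span trend removed (0.0413, 0.0620 and 0.0718 with a 24 h library left out, 0.0659 with the block), 0.0596 with the exon length trend removed (0.0561, 0.0564 and 0.0894, and 0.0596 with the block) and 0.163 without a filter. The H3K9me2 change of genes called higher minus lower, 0.05 over the span, was −0.0672 in the bin at the start, −0.0626 with exon length calls, and 0.108, −0.163, −0.135, −0.0545 and −0.00835 in the 5 classes by span.

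Of 5005 recomputed values of named genes, 4786 kept their call and its direction or stayed uncalled. A change of sign was not counted where a gene was uncalled in both fits. Of the rest, 136 lost and 57 gained a call, and 26 reversed with a call in either fit. With the exon length trend removed, Stat3 was 0.31 (0.31 with the block, and 0.32, 0.25 and 0.36 without 24 h replicates 1, 2 and 3), and Nodal −0.27 (−0.27 with the block, −0.29 and −0.33 without replicates 2 and 3). In that fit Sfrp2 was −0.0467 and −0.0885 and Mt2 −0.0323 and −0.0750 without replicates 2 and 3, Cldn6 −0.32 with the block and −0.43 without replicate 3, and Socs3 −0.18 with the block and −0.22 without replicate 2. With the span trend removed Socs3 was −0.39 (−0.39 with the block, −0.31, −0.41 and −0.46 without replicates 1, 2 and 3), and without replicate 3 Klf4 was −0.10, Cldn6 −0.32 and Sox1 −0.0892. Pou5f1 was −0.49 under quantile normalisation. The causes were not tested. Depth limits genes of few reads.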
